A study of Sus scrofa with 24 samples.

Results

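Hormones of the enteroendocrine cells and granins were described across 4 pig tissues as a set of 10 genes: the hormone genes GCG, SST, NTS, CCK, GIP, SCT, MLN and PYY and the granins CHGA and SCG5. The members were picked by name, from the gene name or the gene description that the scanner files give for each probe, with no threshold on a measured value. Earlier results of these data were known when they were chosen. Of the 10 genes 9 had a probe, with 21 probes in all among 60305 probes and 11393 named genes. GIP was not analysed here. A total of 7 members had several probes, and SCT and PYY had 1 each. Of the 21 probes 20 passed the filter on dim signals, and so did the probe that represents each of the 9 genes, which is the one with the highest mean over all arrays. The samples came from 6 crossbred piglets, numbered 68, 69, 70, 71, 73 and 75, which were weaned at day 28, had free access to feed and water, received no treatment named in the labels and were killed at 10 weeks of age. From each animal 4 samples were taken: liver (Liver), spleen (Spleen), a stretch of jejunum free of Peyer's patches (Jejunum) and a stretch of jejunum that holds them (Peyer), which gave 24 one-colour Agilent arrays and n = 6 per tissue. The samples are pieces of whole tissue, and each level is relative to its array. A lower level can come from fewer cells of a type, from less RNA per cell or from a larger share of RNA of other cells. These cannot be told apart.

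Enteroendocrine cells are scattered single cells of the gut epithelium that sense nutrients in the lumen and release peptide hormones on their basal side. The peptides are cut from larger precursors and stored in dense-core granules, whose bulk is made of granins. Somatostatin (SST) inhibits the release of other hormones, the glucagon precursor (GCG) gives the glucagon-like peptides in the gut, and peptide YY (PYY) and neurotensin (NTS) slow gut transit. These last hormones are classically more abundant towards the distal gut, whereas cholecystokinin (CCK), secretin (SCT), motilin (MLN) and GIP are hormones of the upper small intestine. Chromogranin A (CHGA) is a structural granin and the general marker of these cells, and SCG5, also called 7B2, is a chaperone of the prohormone convertase PCSK2. A Peyer's patch is a cluster of B cell follicles in the gut wall under a specialised epithelium.

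Each probe is a DNA strand of 60 bases, and the sequences below are those that show which stretch of the messenger RNA a reported value comes from. They are written 5′ to 3′ as the deposited scanner files give them. Capitals mark the codons of the mature peptide together with the stop codon in the first, the stop codon that ends the coding stretch in the second, and the first codons of the mature peptide in the third.
SST A_72_P077456: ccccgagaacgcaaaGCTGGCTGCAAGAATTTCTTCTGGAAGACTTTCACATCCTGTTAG
GCG A_72_P146526, first part: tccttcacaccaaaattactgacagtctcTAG
MLN A_72_P706117: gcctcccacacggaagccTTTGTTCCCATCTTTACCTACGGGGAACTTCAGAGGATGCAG
SCG5 A_72_P574509: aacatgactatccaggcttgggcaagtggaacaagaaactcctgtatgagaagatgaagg
CHGA A_72_P048586: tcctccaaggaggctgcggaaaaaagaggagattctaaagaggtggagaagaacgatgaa
CHGA O7353: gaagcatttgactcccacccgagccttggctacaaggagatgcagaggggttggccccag
The last 3 lie in the coding part of their genes and have no capitals.

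Other probes lie near the end of the messenger RNA. In the next 4 stretches capitals mark AATAAA, the letters of the polyadenylation signal.
GCG O4570: caaagataggcaAATAAAactttctagctc
SST A_72_P371158: gaattgaagactgtaatacaaAATAAAatt
NTS A_72_P184456: gcttttctgttaAATAAActtcatagccaa
SCT A_72_P414018: gctcttggcatcAATAAAggagaaattcat
AATAAA was found in 5 of the 21 member probes and in 10.3% of all 60305 probes on the strand of the probe, and in 1 of 21 and 4.32% on the other strand.

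The last stretches are from the PYY probe, which is the only one of its gene, and from the CHGA probe with the second-highest mean level, by which the tissues are ordered below. They have no capitals.
PYY A_72_P116571: atatgctaatacaccgatctcatttgcatg
CHGA A_72_P384998: ctaacatgttctgtataaaagttatataag

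Levels are given as the log2 of the background-subtracted signal minus the 75th percentile of the same array, so a level of 0 is the brightness of the 75th percentile, and levels of different probes are not compared. That percentile lay between 275.4 and 2261.9 signal units over the 24 arrays, and between 60.4% and 75.6% of the probes of an array were well above background. Liver and Spleen lie together on 3 slides, and Jejunum and Peyer together on 3 others, so these pairs can be compared within slides, while in the other comparisons tissue and slide set cannot be told apart. The Peyer array of animal 71 stands apart: it correlated at 0.992 with the Jejunum array of the same animal and at a mean of 0.956 with the other 5 Peyer arrays. The mean level of 7 B cell marker genes was -1.37 on it, whereas the other 5 lay between 1.33 and 1.58. The Peyer minus Jejunum differences of the members are therefore given with and without that array.

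The main question that the pair of jejunal samples allows is whether the hormone genes differ between gut wall with and without a Peyer's patch. GCG, NTS, PYY and SST were lower in Peyer than in Jejunum, by 3.62-fold, 3.76-fold, 2.9-fold and 2.11-fold, and SCG5 was 3.02-fold higher. CCK, SCT, MLN and CHGA did not pass the test. The threshold was an adjusted p of 0.05 (limma, Benjamini-Hochberg over 42650 probes) together with a log2 difference of 1 or more. By that rule 5 of the 9 members were called, 4 lower and 1 higher, beside 13.3% of the 9626 named genes tested, 7.27% lower and 6.08% higher. The median difference of the 9 members was -0.24 and that of all named genes -0.12. Without the Peyer array of animal 71 the same number of members, 5, was called, beside 18.7% of all named genes. The split over all genes moved with the scaling: 585 were higher and 700 lower as scaled here, and 770 higher and 425 lower under median centring, which moved the median of all named genes from -0.12 to 0.06.

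GCG, the glucagon precursor, had levels on the Jejunum arrays from 2.77 to 3.29 with a median of 3.15. On the Peyer arrays of animals 68, 69, 70, 71, 73 and 75 it stood at 1.26, 1.55, -0.28, 2.7, 0.87 and 1.18. Every Peyer array was below every Jejunum array, and the array of animal 71 came closest, only 0.09 under its own Jejunum array. The difference was -1.86 ± 0.41 (SE, n = 6 per tissue, adjusted p = 0.0013 by limma) and -2.16 ± 0.39 without the Peyer array of animal 71. On slides 4, 5 and 6, each with 2 animals, it was -1.86, -1.83 and -1.89. The second GCG probe, which crosses the stop codon shown above, gave -1.48 ± 0.32 (adjusted p = 0.0013 by limma). GCG was the only one of the 9 members for which the 2 jejunal groups did not overlap, as they did not for 11.1% of all named genes tested.

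NTS, the precursor of neurotensin, lay between 0.28 and 1.32 on the Jejunum arrays, with a median of 0.63. On 5 Peyer arrays it lay between -2.09 and -0.77, and on that of animal 71 it was 1.32, the value of that animal's Jejunum array. The groups overlapped through this array alone. The difference was -1.91 ± 0.48 (adjusted p = 0.0036 by limma) with all arrays and -2.42 ± 0.37 without that array, and -1.97 ± 0.52 for the other NTS probe (adjusted p = 0.0046 by limma). By slide NTS differed by -1.82, -1.3 and -2.61 on slides 4, 5 and 6, with animal 71 on slide 5.

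PYY, peptide YY, lay between 2.46 and 3.25 on the Jejunum arrays (median 2.9) and between 0.52 and 1.7 on 5 Peyer arrays. The Peyer array of animal 71 had 3.46, above every Jejunum array. The difference was -1.53 ± 0.42 (adjusted p = 0.0064 by limma) with all arrays and -1.95 ± 0.34 without that array. By slide it was -1.54, -1.06 and -2.01. An unnamed probe of the same sequence had means of 2.94 ± 0.25 in Jejunum and 1.39 ± 1.14 in Peyer (SD, n = 6), against 2.91 ± 0.26 and 1.38 ± 1.11 for the named one. The named probe was assigned by a protein name in its description. The unnamed one repeats its measurement, and no member probe of another sequence checks that PYY is measured.

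SST, the precursor of somatostatin, had levels from 3.74 to 4.43 in Jejunum (median 4.25) and from 2.52 to 3.16 on 5 Peyer arrays. The Peyer array of animal 71, at 4.56, was again above every Jejunum array. The difference was -1.08 ± 0.42 (adjusted p = 0.042 by limma), close to the threshold, and -1.37 ± 0.4 (adjusted p = 0.0072 by limma) without that array. The other SST probes gave -1.09 ± 0.46 (adjusted p = 0.058 by limma) and, for the one that covers the mature peptide, -0.86 ± 0.4 (adjusted p = 0.088 by limma), and were not called; without that array they gave -1.39 ± 0.44 and -1.11 ± 0.39 and were called. With all arrays kept, the call was lost when any of animals 68, 69, 70 and 75 was left out, with differences from -1.08 to -0.94, and under median centring (-0.9) and quantile normalization (-1.04).

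**Figure D1:**
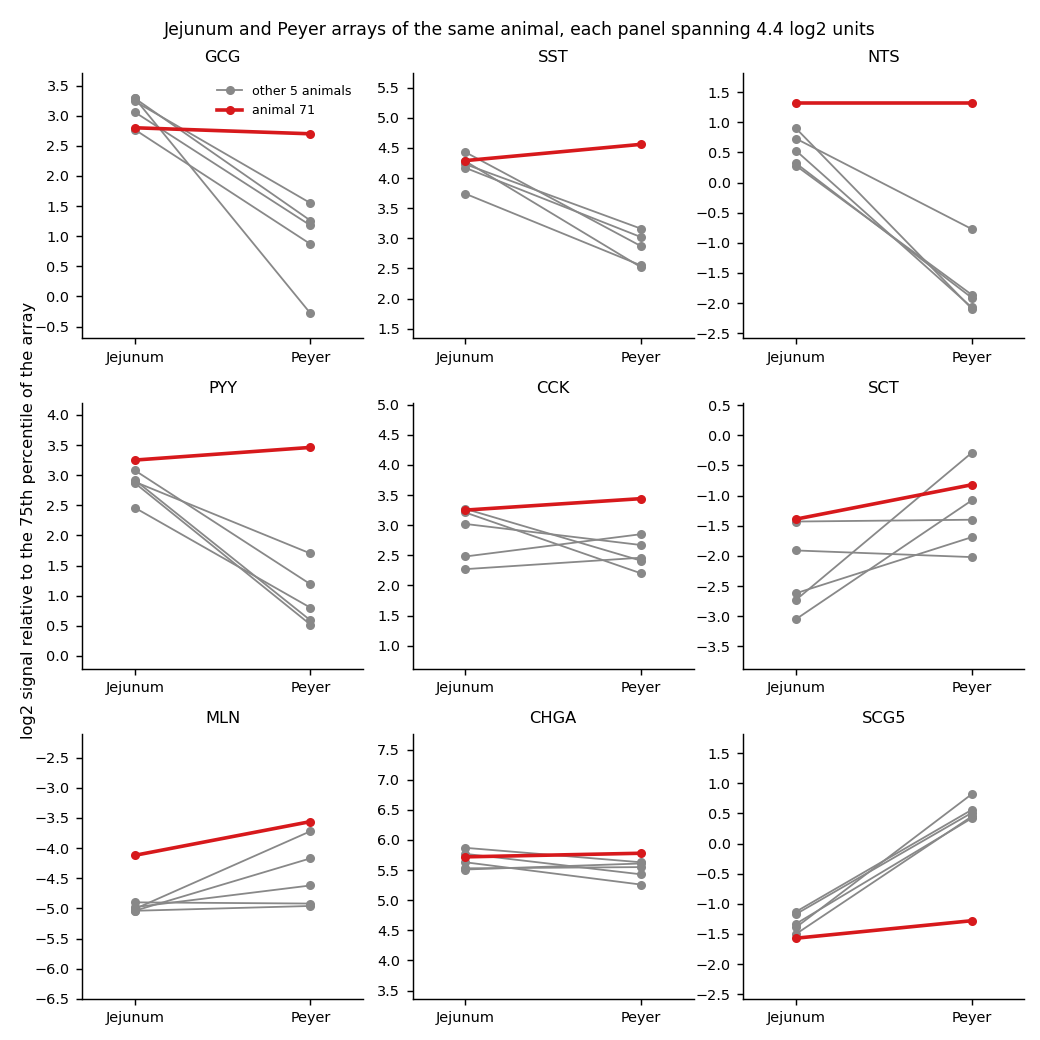
Level of each member (log2 signal relative to the 75th percentile of the array) on the Jejunum and Peyer arrays of the same animal, 1 line per animal, with animal 71 in red and the other 5 animals in grey; all panels span the same height. For GCG, SST, NTS and PYY the grey lines fall and the red line stays near its Jejunum level (NTS 1.32 and 1.32), and for SCG5 the grey lines rise while the red line ends at -1.28.

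CCK, the precursor of cholecystokinin, was not called. Its levels ran from 2.27 to 3.27 in Jejunum (median 3.12) and from 2.2 to 3.44 in Peyer (median 2.57), so the groups overlapped fully. It was lower in Peyer in 3 animals and higher in 3. The difference was -0.24 ± 0.35 (95% confidence interval -0.97 to 0.49, adjusted p = 0.59 by limma) and -0.4 ± 0.36 without the Peyer array of animal 71. The other CCK probes, which overlap the first by up to 41 bases, gave -0.25 and -0.26. The interval reaches almost to a 2-fold decrease.

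Whether a gene differed from CCK within the same animals was compared by an exact sign-flip permutation test, two-sided, on the Peyer minus Jejunum difference of the gene minus that of CCK. This test was added after the values were seen, for genes that had been seen to be lower in Peyer, so it describes these animals and is no independent support. GCG was further below CCK in 6 of 6 animals, by 1.61 on average (-1.61 ± 0.94, SD, n = 6, exact p = 0.0312), and NTS in 6 of 6 (-1.67 ± 0.88, SD, exact p = 0.0312). PYY (-1.29 ± 0.8), SST (-0.83 ± 0.56) and the second CHGA probe (-0.57 ± 0.51) were further below it in 5 of 6 animals (exact p = 0.0625 each). After adjustment over the 5 tests every exact p was 0.0625, so a difference from CCK was not shown for any of them, and 0.0312 is the smallest that 6 animals can give. Without animal 71 the mean differences from CCK were -1.88 for GCG, -1.96 for NTS, -1.55 for PYY, -1.02 for SST and -0.71 for the second CHGA probe. These means were not tested.

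SCT, the precursor of secretin, and MLN, that of motilin, were not called. SCT levels ran from -3.05 to -1.39 in Jejunum (median -2.26) and from -2.02 to -0.29 in Peyer (median -1.24). SCT was higher in Peyer in 5 of 6 animals, by 0.97 ± 0.43 (95% confidence interval 0.08 to 1.86, adjusted p = 0.072 by limma), and by 0.89 ± 0.46 without the Peyer array of animal 71. It passed the test under median centring (1.15), under quantile normalization (1.06) and without animal 75 (1.16). The MLN probe was well above background on 5 Jejunum arrays and 6 Peyer arrays and passed the filter through the Peyer arrays alone. It had levels from -5.04 to -4.12 in Jejunum (median -5.0) and from -4.96 to -3.56 in Peyer (median -4.4) and a difference of 0.52 ± 0.25 (adjusted p = 0.098 by limma), or 0.37 ± 0.25 without the array of animal 71. Its probes did not give 1 picture: the second differed by -0.42 ± 0.3 (adjusted p = 0.25 by limma), and the third, which did not pass the filter, had means of -5.19 in Jejunum and -4.25 in Peyer.

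Among the granins, SCG5, the PCSK2 chaperone, was the only member called higher in Peyer. Its levels ran from -1.57 to -1.13 in Jejunum (median -1.36) and from 0.42 to 0.82 on 5 Peyer arrays, with the array of animal 71 at -1.28, within the range of Jejunum. It was higher in 6 of 6 animals, by 1.59 ± 0.25 (adjusted p = 7.3e-05 by limma), and by 1.9 ± 0.16 (adjusted p = 3.9e-09 by limma) without that array. On slides 4, 5 and 6 the difference was 1.98, 0.98 and 1.82. The coding probe printed above gave 1.65 ± 0.26 (adjusted p = 9.1e-05 by limma), and the pair of SCG5 probes shared no stretch of sequence.

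The 4 probes of CHGA, chromogranin A, disagreed. The probe that represents the gene under the rule, A_72_P479234, had levels of 5.67 ± 0.14 in Jejunum, 5.54 ± 0.18 in Peyer, 6.08 ± 0.33 in Spleen and 6.23 ± 0.09 in Liver (SD, n = 6), nearly the same in a gut and a liver sample. The next probe, A_72_P384998, had 4.6 ± 0.37 in Jejunum, 3.78 ± 0.58 in Peyer, -4.05 ± 1.26 in Spleen and -6.54 ± 1.26 in Liver, where it was well above background on 1 of 6 arrays. O7353 and A_72_P048586, whose coding sequences are printed above, were likewise highest in Jejunum, at -2.73 ± 0.33 and -2.96 ± 0.72, and lowest in the 2 other organs. Over the 24 arrays the first probe correlated with the other 3 at -0.809, -0.682 and -0.525, and the other 3 with each other at 0.735 to 0.829. These arrays share tissues, animals and slides. The first probe is also set apart by its bases: 73.3% of them are G or C, and 0.169% of all probes reach that share. The values of the rule's probe thus go against its label, and CHGA is described by all 4.

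Between Peyer and Jejunum no CHGA probe was called with all arrays. The differences were -0.13 ± 0.13 for the rule's probe (adjusted p = 0.42), -0.81 ± 0.52 for A_72_P384998 (0.21), -0.76 ± 0.39 for O7353 (0.12) and -1.55 ± 0.63 for A_72_P048586 (0.052, all by limma). The last was lower in 6 of 6 animals and the 2 before it in 5 of 6. Without the Peyer array of animal 71 these differences were -0.18 ± 0.13, -1.04 ± 0.53, -0.96 ± 0.39 and -1.79 ± 0.66, and the last was called (adjusted p = 0.028 by limma). On A_72_P384998 the Jejunum arrays ran from 3.92 to 5.05 and 5 Peyer arrays from 3.21 to 3.85, and the Peyer array of animal 71 had 4.89.

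**Figure D2:**
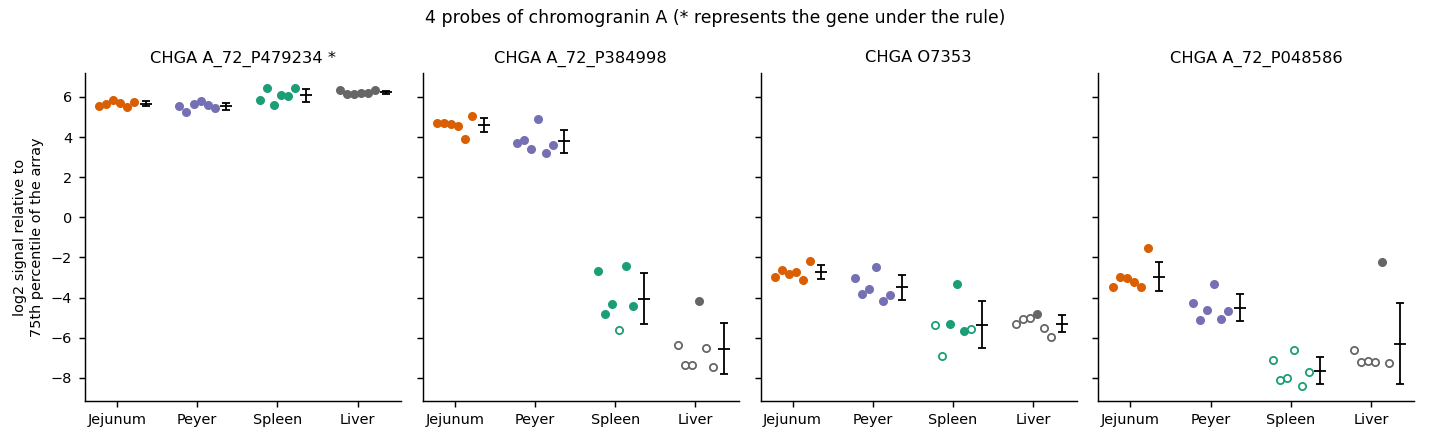
Level (log2 signal relative to the 75th percentile of the array) of the 4 CHGA probes on the 6 arrays of each tissue; filled points were well above background, open points were not, and the bar beside them is the mean ± SD. The rule's probe (star) lies between 5.26 and 6.44 on all 24 arrays, and the other 3 are highest in Jejunum.

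**Figure D3:**
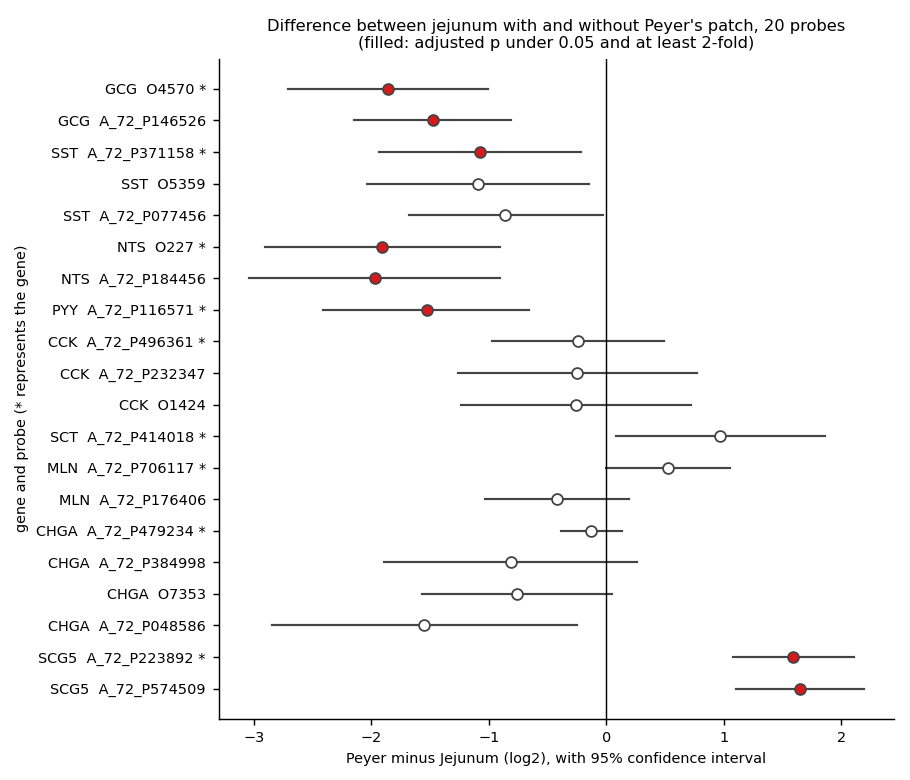
Peyer minus Jejunum difference (log2) of the 20 member probes that passed the filter, with the 95% confidence interval from limma; filled points were called. Both GCG probes, both NTS probes, 1 of 3 SST probes and the PYY probe are called lower, both SCG5 probes are called higher, and the CCK, SCT, MLN and CHGA probes are not called with all arrays.

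Over the 12 Jejunum and Peyer arrays the levels of the lower genes varied together: r was 0.93 between GCG and SST, 0.981 between NTS and PYY and 0.969 between SST and PYY, and 0.968 between SST and CHGA probe A_72_P384998. SCG5 ran opposite, with r between -0.912 and -0.882 to GCG, SST, NTS and PYY. CCK correlated at 0.548 with GCG and 0.732 with SST. These values hold the difference between the tissues. Within the 6 Jejunum arrays r between GCG and NTS was -0.376 and that between SST and CCK was 0.8, and within the 6 Peyer arrays they were 0.838 and 0.918, where the array of animal 71 is high in all of them. No p is given, since the arrays share slides and animals.

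The genes with the most similar pattern were sought by Pearson's r over the 12 jejunal arrays among 8968 named genes. For GCG they were SPAI-2 (0.972), CRIM1 (0.971) and SCG2 (0.967), for SST PRKAB2 (0.971), SCG2 (0.967) and THRB (0.966), and for NTS SCARB2 (0.99), OSR2 (0.988) and BRI3 (0.986). SCG2, secretogranin II, is itself a granin. For PYY they were DECR2 (0.983), CROT (0.982) and MCOLN1 (0.98), and for CHGA probe A_72_P384998 PIGP (0.965), COL8A2 (0.955) and PCSK1 (0.952), the last a prohormone convertase. The rule's CHGA probe gave ZNF775 (0.906), SOX9 (0.904) and CSRNP2 (0.897). For CCK the closest were CLCA1 (0.904), a goblet cell product, HABP2 (0.897) and MANSC1 (0.881), and for SCT INTS13 (0.899), NUBPL (0.848) and ADORA2A (0.847). SCG5 was closest to FANCI (0.995), ANP32B (0.994) and XRCC2 (0.993), of which FANCI and XRCC2 act in DNA repair and were themselves higher in Peyer by 1.74 and 1.99.

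Other genes of the pathway were taken from lists of known function, whose counts stand beside the 13.3% of all named genes called (7.27% lower and 6.08% higher), and nothing is read from a list of so few genes whose share is near these. The genes named below as called with all arrays were called without the Peyer array of animal 71 too. Without that array 18.7% of the 9626 named genes were called, 1050 lower and 749 higher. The list counts without it stand beside this larger share. Of 6 other gut hormone genes tested, 0 were called between Peyer and Jejunum by limma, and 0 reached an unadjusted p under 0.05. Their median was -0.04, with PPY, pancreatic polypeptide, at -0.3 ± 0.17, GHRL, ghrelin, at -0.18 ± 0.3 and GAL, galanin, at -0.08 ± 0.32. PPY, ADM and NPW stood about as high in Liver (-0.53, 0.72 and 2.79) as in Jejunum (-0.57, 0.44 and 2.24). Nothing about enteroendocrine cells is read from PPY, ADM and NPW. GHRL, GAL and GAST were higher in both gut samples than in Liver and Spleen. Without the Peyer array of animal 71 the count stayed 0, and 1 of 6 reached an unadjusted p under 0.05. Of 9 other granins and genes of granule formation and prohormone processing 1 fell, PCSK1, which cuts the glucagon precursor into the glucagon-like peptides (-1.04 ± 0.3, adjusted p = 0.009 by limma). The list's median was -0.64, with SCG2 at -0.95 ± 0.3 and SYT13, a vesicle protein, at -0.96 ± 0.84. Without that array 2 of 9 were called lower.

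Enterochromaffin cells are the enteroendocrine cells that make serotonin. Of 4 serotonin genes tested 2 fell in Peyer: SLC6A4, the serotonin transporter, by 1.32 on the log2 scale (-1.32 ± 0.34, adjusted p = 0.0042 by limma) and HTR4, a serotonin receptor, by 1.84 (-1.84 ± 0.33, adjusted p = 0.00022 by limma). DDC, which makes serotonin from its precursor, was at -0.72 ± 0.17, short of a 2-fold change. Neither of the genes that fell makes the hormone.

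Of 8 transcription factors of the enteroendocrine lineage 1 rose and 2 fell. PAX6, which binds the glucagon promoter, rose by 2.0 ± 0.46 (adjusted p = 0.0018 by limma), from levels of -5.4 in Jejunum, where 4 of 6 arrays were well above background, to -3.4 in Peyer. It passed the filter through the Peyer arrays alone, so a difference in this direction was built into its selection. MLXIPL, a glucose-responsive factor, fell by 1.64 (-1.64 ± 0.39) and PDX1, a factor of the proximal gut and pancreas, by 1.16 (-1.16 ± 0.36). Neither signal was confined to the gut samples. MLXIPL was at -0.91 in Jejunum and 2.03 in Liver, and PDX1 at -2.63 in Jejunum, -1.92 in Liver and -2.65 in Spleen. The part of enteroendocrine cells in these falls was not tested. The median of the 8 was -0.48, and without the Peyer array of animal 71, 1 was higher and 3 were lower.

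Of 7 receptors of these hormones 2 fell: SCTR, the secretin receptor (-1.88 ± 0.37, adjusted p = 0.00054 by limma), which was well above background on 6 Jejunum arrays and 1 Peyer array, and SORT1, which binds neurotensin (-1.11 ± 0.18, adjusted p = 0.00011 by limma). SCTR passed the filter through the Jejunum arrays alone, so its direction was built into its selection, and its Peyer level is mostly that of the background. SSTR5, a somatostatin receptor, was at -0.82 ± 0.33 and not called. Without the array of animal 71 the count was 4 of 7. Of 6 nutrient sensing genes 1 fell, the glucose transporter SLC5A1 (-1.4 ± 0.33, adjusted p = 0.0023 by limma), with the peptide transporter SLC15A1 at -0.93 ± 0.25 and TRPA1 at 0.35 ± 0.31, and without that array 2 fell. Both transporters are also on the list of enterocyte genes. Of 5 peptidases that inactivate gut peptides 4 fell, among them MME (-1.24 ± 0.38), ENPEP (-1.24 ± 0.29) and DPP4, which cleaves the glucagon-like peptides and peptide YY (-1.2 ± 0.22, adjusted p = 0.00026 by limma). All 5 are also made by other cells of the gut wall.

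Markers of other cells moved along with these results, and their part in them was not tested. Of 7 B cell markers 6 rose, with a median of 5.79, and the mean level of the list lay between -4.04 and -3.24 on the Jejunum arrays and between -1.37 and 1.58 on the Peyer arrays. Of 7 general epithelial markers 1 fell, CLDN7 (-1.0 ± 0.28), and the median was -1.0; the list's mean level lay between 4.19 and 4.43 on the Jejunum arrays, between 2.93 and 3.74 on 5 Peyer arrays and at 4.24 on that of animal 71. Of 10 enterocyte markers 4 fell with a median of -1.1, and the mean level lay between 6.2 and 6.6 in Jejunum, between 4.81 and 5.52 on 5 Peyer arrays and at 6.47 on that of animal 71. Without that array 2 of 7 epithelial and 7 of 10 enterocyte markers were called lower. Of 6 goblet and Paneth cell markers 1 fell, MUC2 (-1.21 ± 0.34), with a median of -0.51, and without that array 2 of 6 fell with a median of -0.8. Of 9 smooth muscle markers 6 fell, led by MYH11 (-2.32 ± 0.6), with a median of -1.43, and without that array 5 fell. Of 9 markers of enteric neurons and glia, cells that can also make some of these peptides, RET rose (1.35 ± 0.37) and NCAM1 fell (-1.04 ± 0.32), with a median of -0.37. Of 2 pancreatic markers tested 0 were called by limma, with 1 at an unadjusted p under 0.05.

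Genes whose level changes along the length of the small intestine also differed between the pair of jejunal samples. Of 9 tested 1 rose and 4 fell: FABP6, the bile acid binding protein of the ileum, was higher by 6.72 ± 0.63 (adjusted p = 2.6e-07 by limma), and GATA4, a factor of the proximal small intestine, and CUBN, the vitamin B12 receptor, were lower (-2.08 ± 0.42 and -1.98 ± 0.51). CUBN passed the filter through the Jejunum arrays alone, with 5 of 6 Peyer arrays well above background. FABP6 was not confined to the gut samples: its level was 2.54 in Spleen, against -0.82 in Jejunum, 5.9 in Peyer and -4.82 in Liver. It was well above background on all 6 Spleen arrays. SLC10A2, the bile acid transporter of the ileum, was at 0.11 ± 0.21 and did not follow FABP6. Its probe had much the same level in every tissue (-3.6 in Jejunum, -3.49 in Peyer, -3.24 in Liver and -3.79 in Spleen). Nothing about position is therefore read from SLC10A2. The labels do not give the distance between the 2 pieces of jejunum, and the part of position in the differences of the hormone genes was not tested.

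The other organs show where else the members were measured. Liver and Spleen share slides with each other and not with the gut samples, so each difference between gut and either organ holds the slide set as well. Of the 9 members 7 were called between Jejunum and Liver (33.5% of all named genes), 6 between Peyer and Liver (40.6%), 6 between Jejunum and Spleen (30.9%), 5 between Peyer and Spleen (25.6%) and 3 between Spleen and Liver (39.4%). GCG, SST and NTS passed the filter through the gut arrays, so that a difference from the other organs was built into their selection for the fit, and these counts are a description.

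GCG, SST and NTS were well above background on 0 of 6 Liver arrays and on 2, 1 and 1 of 6 Spleen arrays. The Spleen array of animal 73 was among these for all 3 genes. On it the enterocyte list had a mean level of -2.46 and the epithelial list one of -1.44, each the highest of the Spleen arrays (medians -4.99 and -3.64). The part of gut epithelial RNA in these Spleen signals was not tested. GCG was at least 263-fold higher in Jejunum than in Liver and at least 72.7-fold higher in Peyer. For SST these bounds were 571-fold and 271-fold, and for NTS 50.2-fold and 13.3-fold. For a bound, the gut mean was set against the dimmest probe still above background on each Liver array, or the gene's own signal where brighter. The order of the levels was Jejunum, Peyer, then Spleen and Liver, whose difference was not called for any of the 3 (GCG 0.37 ± 0.41, SST 0.27 ± 0.42, NTS 0.65 ± 0.48) and lies under the background.

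**Figure D4:**
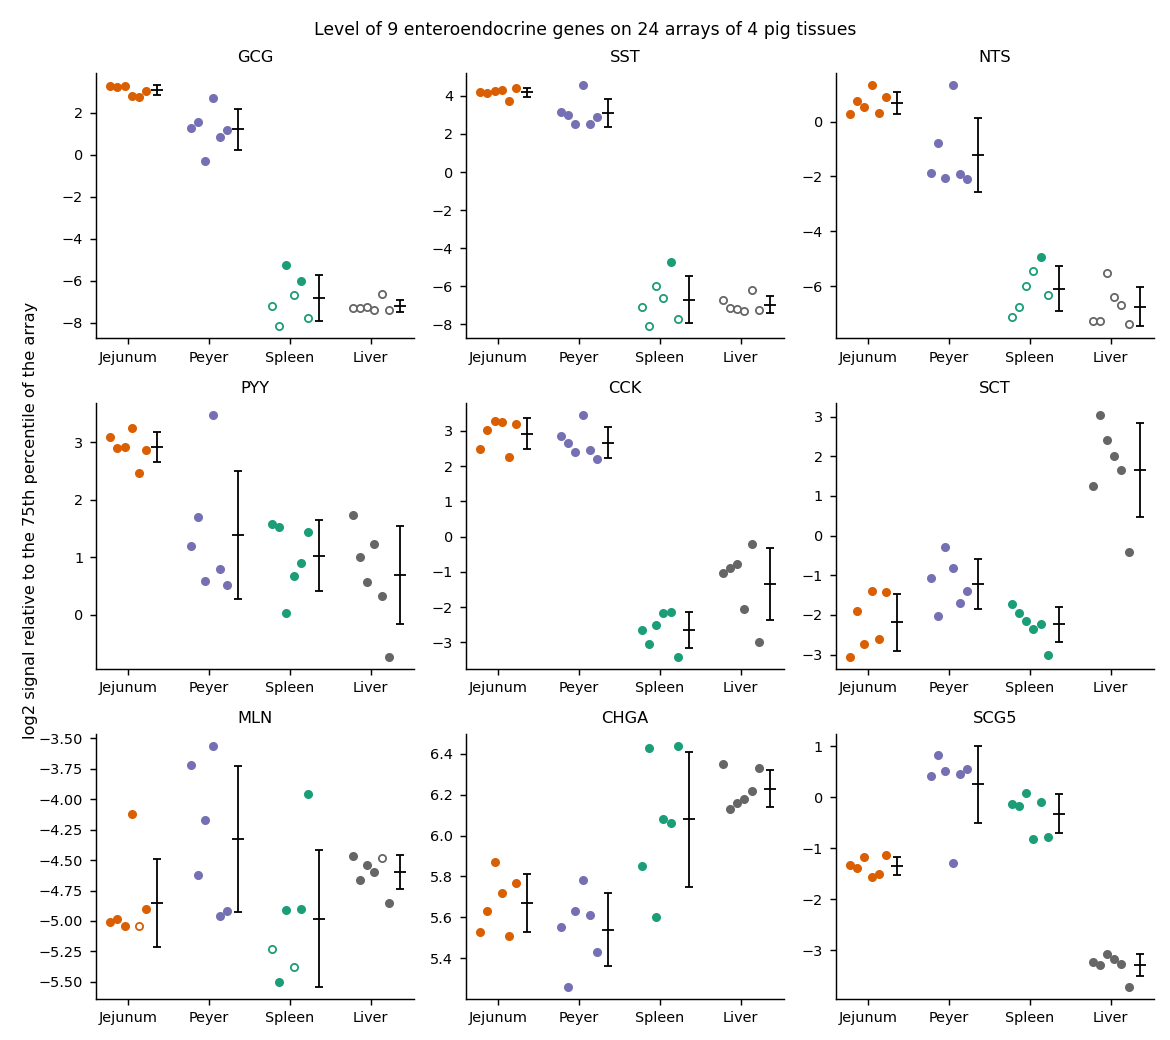
Level (log2 signal relative to the 75th percentile of the array) of the probe that represents each of the 9 members, on the 6 arrays of each tissue, with scales that differ between panels; filled points were well above background, open points were not, and the bar is the mean ± SD. GCG, SST and NTS are high in the gut samples alone, SCT is highest in Liver at 1.66 ± 1.19, and SCG5 is highest in Peyer.

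CCK was well above background on all 24 arrays. Its order was Jejunum (2.92 ± 0.44), Peyer (2.67 ± 0.44), Liver (-1.33 ± 1.02) and Spleen (-2.65 ± 0.5, SD, n = 6). Jejunum and Peyer did not differ beyond their spread, and Liver exceeded Spleen in 6 of 6 animals although the groups overlapped (Spleen minus Liver -1.33 ± 0.35, SE, adjusted p = 0.002 by limma). The Liver arrays ran from -3.0 to -0.22, with animal 75 lowest; the other CCK probes put that animal at -4.45 and -4.7.

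PYY was well above background on all 24 arrays too, which sets it apart from the other genes that fell in Peyer. Its means were 2.91 in Jejunum, 1.38 in Peyer, 1.03 ± 0.61 in Spleen and 0.7 ± 0.85 in Liver. Jejunum exceeded Liver by 2.22 ± 0.42 (adjusted p = 8.1e-05 by limma) and Spleen by 1.89 ± 0.42 (adjusted p = 0.0005 by limma). No difference among Peyer, Spleen and Liver was called (Peyer minus Liver 0.68 ± 0.42 and Peyer minus Spleen 0.35 ± 0.42), and without the Peyer array of animal 71 the latter was -0.06.

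SCT was highest in Liver by its only probe, which holds a run of 7 G. No member probe of another sequence checks that SCT is measured. The Liver arrays of animals 68, 69, 70, 71, 73 and 75 had levels of 1.24, 3.03, 2.42, 2.0, 1.66 and -0.41, against means of -1.22 ± 0.62 in Peyer, -2.19 ± 0.71 in Jejunum and -2.24 ± 0.44 in Spleen. Liver and Spleen did not overlap, and the difference was -3.89 ± 0.43 (Spleen minus Liver, adjusted p = 2.6e-08 by limma). With slide as a fixed block on the 12 arrays of these tissues it was -3.89 ± 0.4 (adjusted p = 6.3e-06 by limma). Jejunum minus Liver was -3.85 ± 0.43, and the Liver array of animal 75 was the one nearest to the gut samples. Peyer exceeded Spleen by 1.02 ± 0.43 (adjusted p = 0.048 by limma), a call close to the threshold. It was lost without the Peyer array of animal 71 (0.94), with slide as a random block (adjusted p = 0.052 by limma), without the filter on dim probes (adjusted p = 0.054), under normexp background correction (0.65) and when any of animals 68, 70, 71, 73 and 75 was left out (0.85 to 1.11).

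SCG5 had a different order: Peyer (0.25 ± 0.76), Spleen (-0.32 ± 0.38), Jejunum (-1.35 ± 0.18) and Liver (-3.29 ± 0.22, SD, n = 6). Peyer was above Spleen by less than 2-fold and not called, by 0.57 ± 0.25 with all arrays (95% confidence interval 0.05 to 1.09, adjusted p = 0.058 by limma) and by 0.87 ± 0.16 without the Peyer array of animal 71 (adjusted p = 7.9e-05 by limma). Spleen exceeded Liver by 2.97 ± 0.25 in 6 of 6 animals (adjusted p = 2.7e-10 by limma) with no overlap, and Jejunum lay below Spleen in 6 of 6 (-1.03 ± 0.25, adjusted p = 0.0012 by limma). The call of Jejunum against Spleen was close to the 2-fold threshold. It was lost under median centring (-0.94), under normexp background correction (-0.93) and when any of animals 68, 69, 70 and 73 was left out (-0.99 to -0.95). The other SCG5 probe gave -1.42 ± 0.26 (adjusted p = 7e-05 by limma). SCG5 was thus higher in the 2 samples with high B cell markers: the mean level of that list was between 0.42 and 0.95 on the Spleen arrays and between -3.48 and -2.95 on the Liver arrays, and the part of B cells in it was not tested.

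MLN had means of -4.33 in Peyer, -4.6 in Liver, -4.85 in Jejunum and -4.98 in Spleen, and by this probe no comparison among the tissues was called. The second MLN probe, the member probe that holds AATAAA on the other strand, ran the other way. Peyer (-5.76) lay below Spleen by 1.14 (-1.14 ± 0.3, adjusted p = 0.0023 by limma) and below Liver by 1.33 (-1.33 ± 0.3, adjusted p = 0.00036 by limma). Both were called and without overlap, but the highest Peyer array was at -5.18 and the lowest Spleen array at -5.17. This probe passed the filter through the Spleen arrays alone, so a higher level in Spleen was built into its selection. The third MLN probe, not in the fit, was well above background on 5 Peyer arrays, 3 Jejunum arrays and 0 arrays of Liver and Spleen. By the CHGA probe A_72_P384998 the order was Jejunum, Peyer, Spleen, Liver, with Jejunum above Liver by 11.13 ± 0.52 and Spleen above Liver by 2.49 ± 0.52 (adjusted p = 0.00018 by limma). The other CHGA probes did not show this excess of Spleen over Liver. Spleen minus Liver was -0.05 ± 0.39 for O7353 (adjusted p = 0.91 by limma) and -1.36 ± 0.63 for A_72_P048586 (adjusted p = 0.061 by limma). A_72_P048586 was well above background on 0 Spleen arrays. The rule's CHGA probe had Jejunum below Liver by 0.56 (-0.56 ± 0.13) and was called in no comparison.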

How the data were processed

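RNA from 4 tissues of 6 pigs was hybridised to 24 one-colour arrays (200 ng RNA, integrity number over 7.5, per the labels). The deposited scanner files hold each spot's signal as intensity, background-subtracted and not scaled between arrays. The signals were computed with Agilent Feature Extraction, version 10.10.1.1 by the headers of these scanner files. The authors' deposited table holds log2 values with identical sorted columns (median 8.24); the sources used here do not give its centring, and it served as an alternative only.

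Signals were taken as log2 and scaled by subtracting each array's 75th percentile. Of 61625 spots 1319 were controls; 42650 probes were kept, those with a signal well above background in all 6 samples of a tissue and no outlier call. limma 3.58.1 (R 4.3.3, lmFit, eBayes) was fitted on 24 arrays with tissue as the only term, with Benjamini-Hochberg adjustment over all kept probes. The fit was tested on simulated data with known changes. Replicate numbers are animal numbers and pair the tissues: deviations correlated at a mean of 0.17 in 36 same-animal pairs of arrays and -0.034 in 180 others.

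The members, the gene lists and the tests were chosen with earlier results of these data known. Named genes are all members, up to 3 genes per list with the largest Peyer minus Jejunum difference, and the 3 genes most like each member. CLDN7, SLC10A2, ADM, NPW and GAST were chosen after their values were seen. No list was tested as a set. Markers of hepatocytes (ALB lower in Peyer, 1 of 7, median -0.71) and of spleen macrophages (VCAM1 and CD5L higher, 2 of 4, median 1.19) were also counted. Alternatives were median centring, quantile normalization, normexp (offset 50), the authors' values, no filter, animal or slide as a block, only the 2 tissues, each animal left out, the Peyer array of animal 71 left out, and the mean over probes.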

Additional observations from a re-analysis of the deposited data

Results flagged for a closer look

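An array was singled out where its gap to the nearest of the other 5 arrays of its tissue took up more of the tissue's whole range than Dixon's critical value for 6 values allows. Over 21 probes and 4 tissues 84 groups were examined and 18 held such an array, where chance gives about 1 in 20. The 84 groups are not independent, since probes of 1 gene share their samples.

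The Peyer array of animal 71 accounts for 6 of the 18. It was highest for the SST probes A_72_P371158 (4.56, next 3.16) and O5359 (4.61, next 3.18) and for the CCK probes A_72_P232347 (3.48, next 2.72) and O1424 (3.17, next 2.45). It was lowest for the SCG5 probes A_72_P223892 (-1.28, next 0.42) and A_72_P574509 (-2.96, next -1.25). The levels of the B cell, epithelial and enterocyte lists on this array stand in the report, and what sets it apart was not tested.

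The Liver array of animal 73 was highest for GCG O4570 (-6.65, next -7.25), GCG A_72_P146526 (-6.49, next -7.06), SST O5359 (-6.68, next -7.25) and SST A_72_P077456 (-6.55, next -7.14), each time with a signal that was not well above background. For CHGA A_72_P048586 it had -2.25, the next -6.63, and there the signal was well above background. The Liver array of animal 75 was lowest for both SCG5 probes (A_72_P223892 at -3.71, next -3.28, and A_72_P574509 at -5.26, next -4.63, the latter not well above background). For CHGA A_72_P384998 the Liver array of animal 71 was highest (-4.15, next -6.38).

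The remaining 4 were single arrays of other groups. SST O5359 was lowest on the Jejunum array of animal 73 (3.81, next 4.22). MLN A_72_P706117 was highest on the Jejunum array of animal 71 (-4.12, next -4.9), and MLN A_72_P176406 on the Spleen array of the same animal (-3.4, next -4.54). CHGA A_72_P048586 was highest on the Jejunum array of animal 75 (-1.55, next -2.95).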

How the results depend on the processing

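Under every alternative run, including animal as a replicate block, 4 or 5 of 9 members were called between Peyer and Jejunum, 5 with the block, which changed no call there, and 4 to 5 with 1 animal left out; GCG, NTS, PYY and SCG5 were called each time, while SST was lost and SCT gained in the settings named in the report, and SST also without the filter on dim probes (-1.08 ± 0.42, adjusted p = 0.057 by limma). Between Spleen and Liver 3 were called, and 4 with the second CHGA probe. In the authors' table the gut and the other organs could hardly be compared: its slide means differ by a median of 0.313 over 44600 probes, against 0.902 in the values used here, and for GCG by 0.34 against 9.82. There 2 members were called between Jejunum and Liver (7 as reported), 3 between Jejunum and Spleen (6), 3 between Peyer and Liver (6) and 1 between Peyer and Spleen (5). Signal over background limits GCG, SST and NTS in Liver and Spleen and MLN everywhere.

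The following values changed sign, and the cause was not tested. With the authors' values, Peyer minus Liver was -1.03 for GCG, -0.66 for SST, -0.86 for NTS, -0.51 for PYY, -0.59 for CCK and 0.46 for CHGA. Peyer minus Spleen was -0.77 for GCG, -0.31 for SST, -0.79 for NTS, -0.92 for PYY, -0.37 for SCG5 and 0.21 for CHGA. Jejunum minus Liver was -0.35 for CCK and 0.49 for CHGA, Jejunum minus Spleen -0.22 for MLN and 0.24 for CHGA, and Spleen minus Liver -0.35 for SST, -0.06 for NTS, -0.26 for GCG and 0.25 for CHGA. With normexp, Spleen minus Liver was -0.32 for SST, -0.21 for NTS and -0.24 for GCG, and Jejunum minus Spleen was -0.04 for SCT. MLN under normexp was -0.17 for Peyer minus Jejunum, -0.36 for Peyer minus Spleen, -0.7 for Peyer minus Liver and -0.19 for Jejunum minus Spleen. With quantile normalization CHGA was 0.07 for Peyer minus Jejunum (0.05 with median centring), 0.57 for Spleen minus Liver and 0.03 for Peyer minus Liver. With the mean over all probes, MLN was -0.25 for Peyer minus Spleen, -0.53 for Peyer minus Liver and -0.3 for Jejunum minus Spleen. With the mean over all probes CHGA was 0.23 for Spleen minus Liver, 4.12 for Jejunum minus Liver, 3.89 for Jejunum minus Spleen, 3.07 for Peyer minus Spleen and 3.31 for Peyer minus Liver. With the second CHGA probe, an alternative added after seeing the data, these were 2.49, 11.13, 8.64, 7.83 and 10.32. PYY for Peyer minus Spleen was -0.06 without the Peyer array of animal 71. With 1 animal left out, PYY ran from -0.03 to 0.51 for Spleen minus Liver and from -0.14 to 0.6 for Peyer minus Spleen, and for Jejunum minus Spleen SCT ran from -0.26 to 0.32 and MLN from -0.1 to 0.34.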
